A study of Homo sapiens with 8 samples.

Results

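S phase and DNA replication genes were followed in A204 cells as 36 named genes, from the E2F factors and E cyclins that open S phase to the helicase, polymerases, clamp and nucleotide enzymes that copy the genome. Their names were matched to the gene symbols of the array's probes, old or current, and each gene is given by the probe with the highest mean signal over the 8 arrays. All 36 had a probe, of 20046 genes with a probe of exactly 1 symbol. A204 is an established malignant rhabdoid tumor (MRT) line, and every group shares its loss of SMARCB1, which is part of the SWI/SNF machinery that shifts nucleosomes. Parental cells without drug had 2 arrays (untreated 1 and 2). Parental cells given 5 µM of a tyrosine kinase inhibitor (TKI) had 1 array each for dasatinib, pazopanib and sunitinib, and the sublines raised from A204 in rising doses of each drug (DasR, PazR and SunR) had 1 array each, with 5 µM kept on. The labels give the untreated cells as without drug, whereas the study's supplement speaks of a DMSO control for this dataset, so whether vehicle was present is not settled. The labels also do not say how long the parental cells were in drug, whether a subline is 1 clone, or whether separate cultures lie behind the arrays. The p-values therefore cover no more than the spread among the arrays at hand. All values are log2 intensities that the authors had quantile normalized, and every difference below is on that log2 scale.

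Replication is set up in G1, when the origin recognition complex, CDC6 and CDT1 load the MCM2 to MCM7 ring onto DNA. In S phase CDC45 and the GINS complex turn that ring into the active helicase, polymerase alpha with primase lays the primers, and PCNA, loaded by the RFC complex, tethers the main polymerases. Many of these genes are transcribed together by E2F factors, which the retinoblastoma protein holds back until cyclin E and its kinase act. In tumor cells the level of these transcripts commonly follows how many cells are cycling.

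The promoters of the genes are shown because members that move together may carry the same short motif. RefSeq windows on GRCh38.p14, from 250 bases before to 50 bases after the gene start, were given for 33 of the 36 genes, some with several starts. They were searched on both strands for 4 spellings of the E2F site (TTTCCCGC, TTTGGCGC, TTTCGCGC and TTTGCCGC) and for CCAAT. At least 1 E2F spelling was found for 19 of the 33 (57.6%), against 5.41% of the 15034 measured genes with a window. Counted by window, it was found in 46.3% of their 41 windows, against 3.31% of all 35116 windows. CCAAT was found for 21 (63.6%), against 42.34% of the measured genes. The capitals mark the E2F spellings, read on either strand (GCGGGAAA is TTTCCCGC on the other strand), in 5 of the genes, with 2 that were called below (POLA2, CLSPN), 2 helicase subunits that differed little between sublines and treated parental cells (MCM3, MCM6), and the clamp PCNA. POLA2 lies at chr11:65261712-65262011 on the plus strand, CLSPN at chr1:35769929-35770228 on the minus strand, MCM6 at chr2:135876394-135876693 on the minus strand, MCM3 at chr6:52284693-52284992 on the minus strand, and PCNA at chr20:5126573-5126872 on the minus strand.
POLA2: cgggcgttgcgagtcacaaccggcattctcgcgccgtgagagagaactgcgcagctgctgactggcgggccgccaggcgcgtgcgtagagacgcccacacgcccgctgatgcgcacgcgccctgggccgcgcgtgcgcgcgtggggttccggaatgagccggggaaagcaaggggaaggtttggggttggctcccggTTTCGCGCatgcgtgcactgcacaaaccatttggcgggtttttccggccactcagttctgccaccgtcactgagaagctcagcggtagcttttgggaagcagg
CLSPN: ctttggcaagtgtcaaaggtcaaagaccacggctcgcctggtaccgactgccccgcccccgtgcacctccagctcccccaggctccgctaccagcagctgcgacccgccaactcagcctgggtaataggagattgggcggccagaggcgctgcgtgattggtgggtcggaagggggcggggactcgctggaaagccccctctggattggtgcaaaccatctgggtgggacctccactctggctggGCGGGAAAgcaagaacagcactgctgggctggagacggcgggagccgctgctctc
MCM6: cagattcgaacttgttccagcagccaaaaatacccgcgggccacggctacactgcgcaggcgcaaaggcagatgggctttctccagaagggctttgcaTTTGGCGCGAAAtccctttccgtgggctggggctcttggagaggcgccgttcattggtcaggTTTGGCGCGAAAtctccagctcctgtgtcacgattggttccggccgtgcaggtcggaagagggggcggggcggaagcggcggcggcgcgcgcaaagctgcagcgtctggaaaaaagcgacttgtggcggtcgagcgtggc
MCM3: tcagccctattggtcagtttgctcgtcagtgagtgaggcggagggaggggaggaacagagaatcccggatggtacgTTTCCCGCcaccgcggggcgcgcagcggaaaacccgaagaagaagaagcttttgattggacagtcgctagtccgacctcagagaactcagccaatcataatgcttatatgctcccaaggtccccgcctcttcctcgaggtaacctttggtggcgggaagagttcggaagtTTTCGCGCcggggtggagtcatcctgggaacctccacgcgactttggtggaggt
PCNA: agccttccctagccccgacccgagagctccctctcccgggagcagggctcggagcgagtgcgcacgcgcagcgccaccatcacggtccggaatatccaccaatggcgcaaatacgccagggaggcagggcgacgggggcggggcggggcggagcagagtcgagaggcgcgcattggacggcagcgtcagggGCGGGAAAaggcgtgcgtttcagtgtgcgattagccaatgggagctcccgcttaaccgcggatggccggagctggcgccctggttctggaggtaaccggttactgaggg
Counted from the gene start, the match begins at -53 in POLA2, -5 in CLSPN, -59 in PCNA, and -174 and -4 in MCM3. MCM6 carried the motif 4 times, as stretches at -152 and -90 in each of which TTTGGCGC overlaps TTTCGCGC read on the other strand. The 19 genes with the motif had a median difference between sublines and treated parental cells of 0.40, and the 14 without it 0.61, and for treated against untreated cells the medians were -0.85 and -0.96. Among the genes called below, RFC4, CHAF1A and CCNE1 had a window but no E2F spelling in it. A match describes the letters in this window and is not a measured site. Because the 36 were listed as S phase genes, many of them E2F targets, a high share of E2F spellings was to be foreseen.

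The replication genes were highest in untreated cells, lower in parental cells in drug, and between the groups in the sublines. Taken as the deviation of each gene from its own mean over the 8 arrays, the median was 0.53 and 0.49 in untreated 1 and 2. It was -0.13, -0.35 and -0.65 in parental cells in dasatinib, pazopanib and sunitinib, and 0.48, 0.05 and -0.23 in DasR, PazR and SunR. DasR was thus level with the untreated arrays and SunR stood below the parental array in dasatinib. The study describes SunR as slow to proliferate. In bulk RNA, fewer cells in S phase and less of these transcripts in each cell cannot be told apart.

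**Figure D1:**
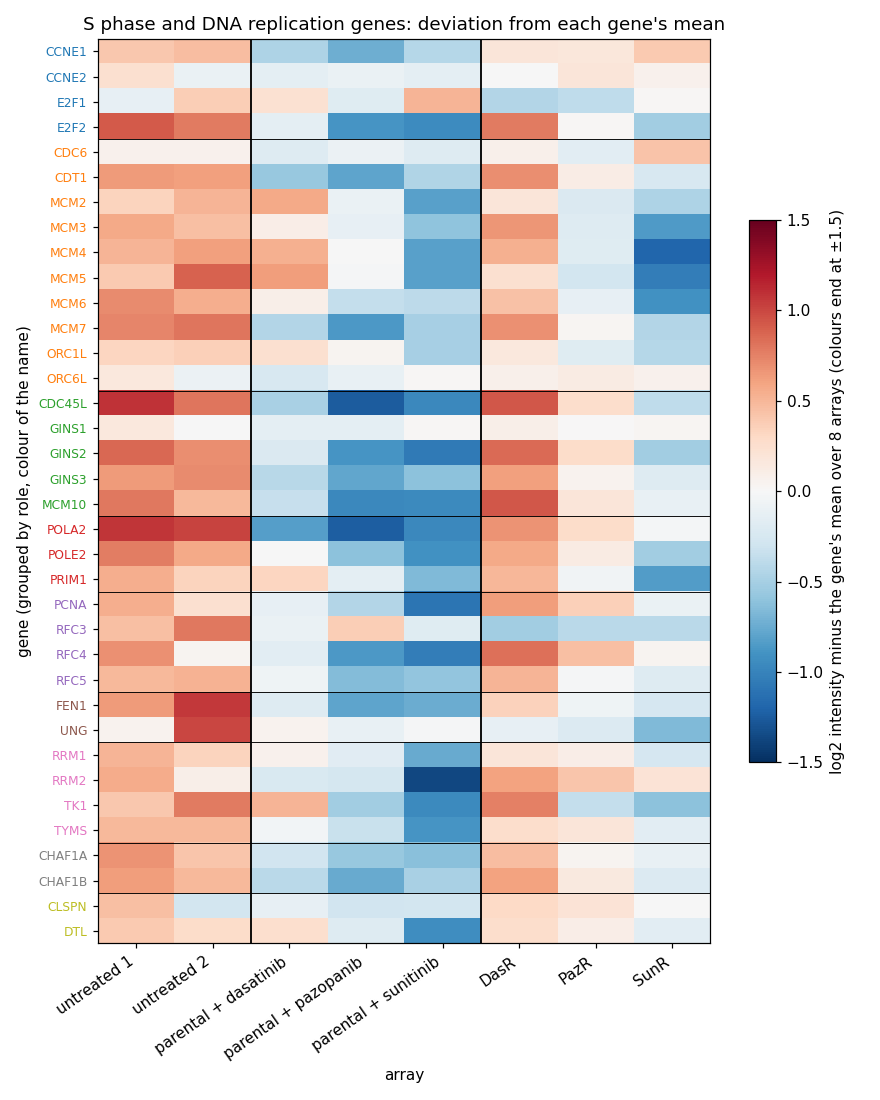
Heat map of the 36 genes (rows) in the 8 arrays (columns), coloured by log2 intensity minus the gene's mean over the arrays; rows are grouped from the top as G1 to S transition, licensing, helicase activation, polymerase and primase, clamp and loader, flap and uracil repair, nucleotide supply, chromatin assembly and checkpoint. The untreated arrays and DasR are mostly red (median deviations 0.53, 0.49 and 0.48) and the parental array in sunitinib mostly blue (-0.65).

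The arrays themselves held to their label, with some limits. PDGFRA read 12.1 to 12.6 in the 5 parental arrays and 9.63 to 10.45 in the sublines, VIM was bright in all, SMARCB1 lay near the array median of 6.67, and the 10 measured markers of leukocytes, endothelium and epithelium read 6.21 to 7.12. Since no detection p-values were at hand, it is not known which dim probes stood above background. CDC6, GINS1 and CLSPN, at means of 6.87, 6.69 and 6.81, lay near the array median, and CCNE2, at 6.35, lay below it in every array, at percentile 1.9 of all probes. The untreated pair was split by ribosomal RNA. A probe of RNA28SN5 read 8.35 in untreated 1 and 11.84 in untreated 2, beside 12.44 to 12.55 in treated parental cells and 8.61 to 9.35 in the sublines, so this signal moved with the groups compared. Over all probes, 6.15% differed by over 0.5 between the untreated arrays. Of the replication genes 3 of 36 did, namely CLSPN (0.73 higher in untreated 1), RFC4 (0.65 higher) and UNG (0.95 lower), and the median difference was 0.12.

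The first comparison asks how sensitive parental cells responded to the drugs. Against the untreated arrays, 35 of 36 replication genes were lower in treated parental cells, by a median of 0.91, while the median over all probes was -0.0004. Every treated array lay below both untreated arrays for 28 genes, against 14.6% of all probes. None passed the threshold (limma, Benjamini-Hochberg adjusted p under 0.05 over all 48107 probes), with higher and lower calls at 0.00416% and 0% of the probes. At an unadjusted p under 0.05, 22 genes were lower and 0 higher (6.21% and 6.18% of all probes), and the methods' t-test gave 16 before and 0 after adjustment. The smallest p belonged to POLA2 (-2.05, SE 0.26, adjusted p = 0.0529), CCNE1 (-0.98, SE 0.19, adjusted p = 0.143) and CHAF1A (-1.03, SE 0.19, adjusted p = 0.143). POLA2 passed without untreated 2, without the parental array in sunitinib, without DasR, without SunR, in the fit of these 5 arrays alone and with robust estimation, and CCNE1 passed without the parental array in sunitinib. Against untreated 2 alone, the untreated array with ribosomal RNA near that of treated cells, the median was -0.85.

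The second comparison sets the resistant sublines against sensitive parental cells in the same drugs. In the sublines 29 of the 36 genes were higher and 7 lower, with a median of 0.46 beside 0.001 over all probes. The 5 genes that passed were all higher, at 2.71% of all probes called higher, and no gene was among the 3.33% called lower. POLA2 rose 2.49-fold (1.31, SE 0.23, adjusted p = 0.00793) and RFC4 2.18-fold (1.12, SE 0.29, adjusted p = 0.0467). CCNE1 rose 1.73-fold (0.79, SE 0.16, adjusted p = 0.0172), CHAF1A 1.55-fold (0.63, SE 0.16, adjusted p = 0.0472) and CLSPN 1.32-fold (0.40, SE 0.10, adjusted p = 0.0357). At an unadjusted p under 0.05, 19 genes were higher and 1 lower (10.2% and 10.4% of all probes). The groups did not overlap for 14 genes that were higher (12.5% of all probes) and 2 that were lower, RFC3 and UNG (13% of all probes).

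The deviations of parental and resistant arrays of 1 drug were weakly correlated (0.126 to 0.199 over all probes). The drug was therefore also fitted as a block. With it 12 genes passed, all higher, at 3.65% of the probes called higher and 4.06% lower. The 7 added genes were MCM10, PCNA, CDC45L, RRM2, GINS2, GINS3 and E2F2. The calls were sensitive to single arrays, and leaving out 1 of the 6 left between 0 and 12 genes. POLA2 passed unless the parental array in pazopanib was left out (adjusted p = 0.0612). CCNE1 missed the threshold without that array (adjusted p = 0.111), without parental dasatinib (adjusted p = 0.0684) and without PazR (adjusted p = 0.0501), whereas 12 genes passed without SunR. RFC4 passed only without parental dasatinib or SunR, and CHAF1A and CLSPN only without SunR. With the split of the ribosomal RNA signal as a term (untreated 1 with the sublines, untreated 2 with treated parental cells), the median of the genes was 0.42, and 0 of them passed, with 0.00208% of all probes called and 2 of the 36 genes at an unadjusted p under 0.05, beside 2166 of the 48107 probes, a like share. CLSPN then stood at -0.33, the opposite sign, while POLA2 stood at 1.26, CCNE1 at 0.86, RFC4 at 0.47 and CHAF1A at 0.37. Among the genes not called, UNG went from -0.30 to 0.65, E2F1 from -0.45 to 0.05 and MCM5 from -0.29 to 0.20. GINS1, ORC6L, CCNE2, PRIM1, MCM2, MCM3 and MCM6 also changed sign, and the remaining genes kept theirs. The term is set only by the difference between untreated 1 and 2, and the SE of POLA2 rose from 0.23 to 0.48. Sublines and treated parental cells lie on opposite sides of this split, so group and split cannot be told apart here.

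**Figure D2:**
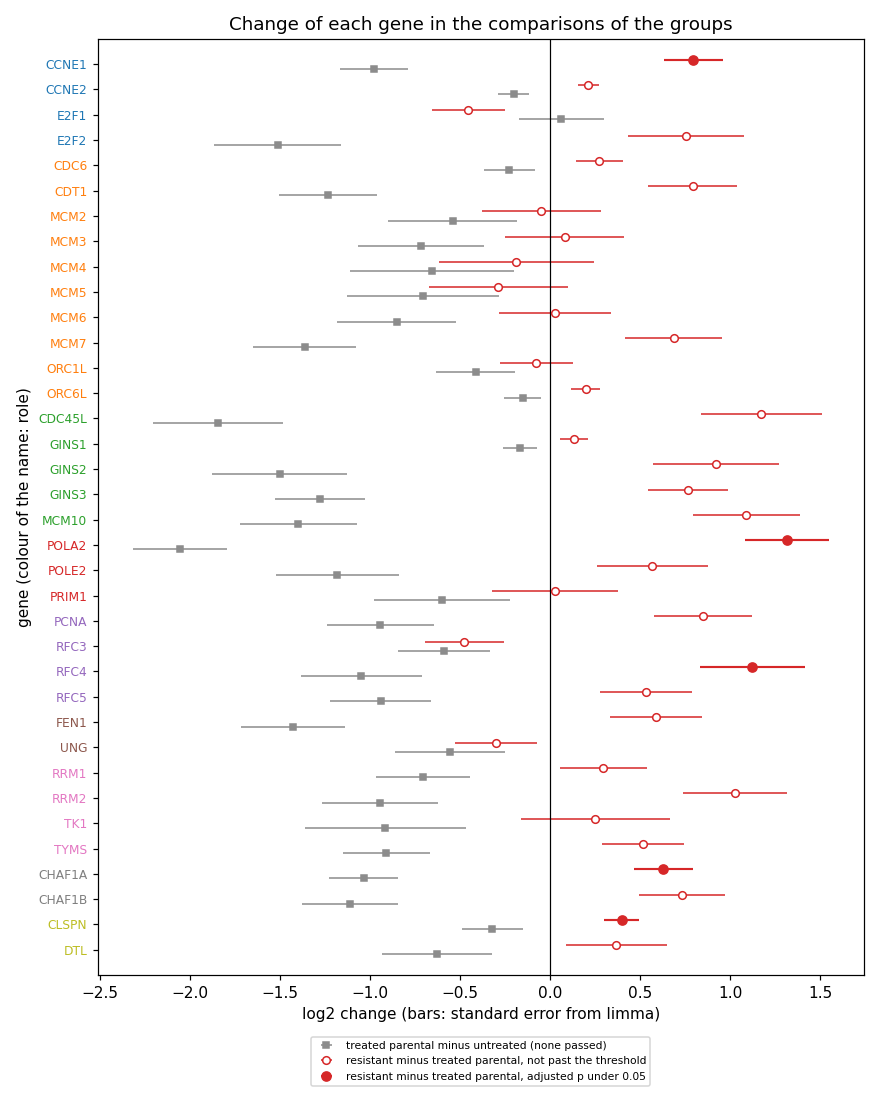
Log2 change of each gene (rows, grouped by role) with its standard error from limma, for resistant minus treated parental (red circles, filled where the adjusted p was under 0.05) and treated parental minus untreated (grey squares). The filled circles are POLA2, RFC4, CCNE1, CHAF1A and CLSPN, and the grey squares lie left of 0 for 35 of the 36 genes.

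The third comparison, of resistant with untreated cells, left most of the genes below the starting level on average, but hardly in DasR. The median against the untreated mean was -0.06 in DasR, -0.51 in PazR and -0.82 in SunR. In the sublines 30 genes were lower and 6 higher than in untreated cells, by a median of -0.47. None passed with limma, beside 0.158% of all probes called higher and 0.118% lower. At an unadjusted p under 0.05, 8 were lower and 0 higher (3.59% and 3.68% of all probes), and the methods' t-test gave 1 before and 0 after adjustment. The smallest p belonged to RFC3 (-1.06, adjusted p = 0.190), FEN1 (-0.84, adjusted p = 0.556) and UNG (-0.86, adjusted p = 0.570). The sublines lay below both untreated arrays for 14 genes, against 12.4% of all probes. The 3 comparisons share arrays and are not independent of each other.

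By role, the genes that open S phase went different ways. CCNE1, the cyclin that drives cells from G1 into S phase, read 8.63 and 8.69 in untreated cells, 7.77, 7.49 and 7.79 in parental cells in dasatinib, pazopanib and sunitinib, and 8.41, 8.40 and 8.62 in DasR, PazR and SunR. All sublines were above all treated parental arrays and slightly below both untreated ones, so that CCNE1 ended 0.18 under the untreated mean. E2F1, a transcription factor of the G1 to S step, read 7.81 and 8.31 in untreated cells, 8.16, 7.76 and 8.45 in treated parental cells in the same order, and 7.50, 7.56 and 7.95 in the sublines. It was the only gene above the untreated mean in treated parental cells (0.06), and it was lower in each subline than in its own parental array (-0.45 on average, adjusted p = 0.230). E2F2, its close relative, had the shape of most other genes, at 9.73 and 9.60, then 8.67, 7.93 and 7.87, then 9.60, 8.84 and 8.29. CCNE2, the second E cyclin, read 6.21 to 6.59 throughout, with its mean at percentile 1.9 of all probes.

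Among the genes that license origins, the MCM2 to MCM6 subunits of the helicase did not separate sublines from treated parental cells. MCM2 read 9.96 and 10.14 in untreated cells, 10.20, 9.53 and 8.81 in parental cells in dasatinib, pazopanib and sunitinib, and 9.81, 9.41 and 9.17 in DasR, PazR and SunR. The sublines lay inside the range of treated parental cells, each within 0.39 of the parental array of its own drug. MCM4 read 10.94 and 11.05 without drug, 10.96, 10.43 and 9.62 in treated parental cells, and 10.97, 10.25 and 9.24 in the sublines. MCM5 read 9.73 and 10.22, then 9.96, 9.32 and 8.52, then 9.58, 9.06 and 8.30. Both dasatinib arrays were thus within the range of untreated cells or just below it for MCM4 and MCM5, and both sunitinib arrays were the lowest. Between sublines and treated parental cells the 5 subunits differed by -0.29 (MCM5) to 0.08 (MCM3). MCM7, the sixth subunit of the ring, behaved otherwise, at 12.62 and 12.69 without drug, 11.46, 11.02 and 11.40 in treated parental cells, and 12.57, 11.92 and 11.44 in the sublines, a difference of 0.69 (adjusted p = 0.172). CDT1, which brings the ring to the origin, read 9.49 and 9.47, then 8.28, 8.07 and 8.40, then 9.55, 8.97 and 8.61, and differed by 0.79 (adjusted p = 0.0885). CDC6, a loading ATPase near the array median, was highest in SunR at 7.29. The origin recognition subunits ORC1L and ORC6L (now ORC1 and ORC6) differed by -0.08 and 0.20.

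The genes that switch the helicase on were higher in every subline than in its own parental array. CDC45L (now CDC45), which joins the MCM ring in the active helicase, read 11.25 and 10.95 in untreated cells, 9.68, 8.91 and 9.19 in treated parental cells, and 11.09, 10.42 and 9.77 in DasR, PazR and SunR. The sublines did not overlap the treated parental arrays, and DasR lay between the untreated arrays with PazR and SunR below both, at a difference of 1.17 (adjusted p = 0.0647, and 0.0186 with the drug as a block). MCM10, which helps the helicase fire, read 10.25 and 9.95, then 9.11, 8.50 and 8.50, then 10.39, 9.64 and 9.35, at 1.09 (adjusted p = 0.0543, and 0.0115 with the block). GINS2 differed by 0.92 and GINS3 by 0.77 (adjusted p = 0.0319 and 0.0322 with the block), while GINS1, near the array median, differed by 0.13.

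Of the 36 genes POLA2 gave the largest difference between sublines and treated parental cells. Its partners POLA1 and PRIM2, not among the 36, differed by 0.37 and 0.35 without passing (adjusted p = 0.320 and 0.0746). POLA2, the regulatory subunit of polymerase alpha, read 10.30 and 10.24 in untreated cells, and 8.40, 7.99 and 8.26 in parental cells in dasatinib, pazopanib and sunitinib. In DasR, PazR and SunR it read 9.90, 9.50 and 9.20. The 3 groups did not overlap, and the sublines stood between the others, 0.74 under the untreated mean. POLE2, the second subunit of the leading strand polymerase epsilon, differed by 0.57 between sublines and treated parental cells. PRIM1, the catalytic subunit of the primase that works with polymerase alpha, read 10.10 and 9.89, then 9.88, 9.41 and 8.89, then 10.05, 9.50 and 8.71. Its sublines matched the treated parental array of the same drug within 0.18 or less, so it resembled MCM4 rather than POLA2.

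The clamp and its loader were split as well. PCNA, the sliding clamp, read 12.17 and 11.86 in untreated cells, 11.50, 11.19 and 10.53 in treated parental cells, and 12.26, 11.98 and 11.53 in the sublines, a difference of 0.85 (adjusted p = 0.0988, and 0.0175 with the block). DasR and PazR were thus within or above the untreated range. RFC4, a loader subunit, read 11.02 and 10.37, then 10.17, 9.46 and 9.29, then 11.15, 10.78 and 10.36. All 3 sublines lay above all treated parental arrays, and the untreated arrays spanned 0.65, which is within the sublines' range. RFC3, another subunit of the loader, was lower in the sublines on its brightest probe, at 9.86 and 10.21, then 9.32, 9.79 and 9.23, then 8.89, 9.01 and 9.02. RFC3 lies on chromosome 13, DasR carries the reported loss of 13q, and whether this bears on RFC3 was not tested. RFC5 differed by 0.53. FEN1, the flap endonuclease that finishes Okazaki fragments, read 11.00 and 11.42, then 10.16, 9.57 and 9.61, then 10.71, 10.29 and 10.10. In the sublines it read 0.59 above treated parental cells without passing (adjusted p = 0.223), and it was below untreated cells in every subline. UNG, which removes uracil from DNA, was below untreated cells by 0.86 in the sublines, with the untreated arrays themselves 0.95 apart.

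The enzymes that supply nucleotides were 0.71 to 0.94 lower in treated parental than in untreated cells. RRM2, the small subunit of ribonucleotide reductase, read 9.20 and 8.73 without drug, 8.41, 8.37 and 7.28 in treated parental cells, and 9.24, 9.05 and 8.84 in the sublines. The sublines lay within or just above the untreated range, at 1.02 over treated parental cells (adjusted p = 0.0626, and 0.0192 with the block). TYMS, thymidylate synthase, differed by 0.52 and RRM1, the large reductase subunit, by 0.30. TK1, thymidine kinase, read 10.38 and 10.76, then 10.49, 9.46 and 9.03, then 10.74, 9.62 and 9.36. Both dasatinib arrays were thus in the untreated range and the other 4 more than 0.7 below it. DasR carries the reported gain on 17q, and whether this bears on TK1 was not tested.

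Both chromatin assembly subunits were higher in every subline than in every treated parental array. CHAF1A, the large subunit of the factor that puts histones on new DNA, read 8.31 and 8.05 without drug, 7.35, 7.07 and 7.01 in treated parental cells, and 8.10, 7.68 and 7.53 in the sublines. CHAF1B, its partner, read 9.58 and 9.43, then 8.54, 8.19 and 8.45, then 9.55, 9.09 and 8.73, at a difference of 0.73 (adjusted p = 0.101). For both genes DasR was the highest subline and SunR the lowest. CLSPN, which carries the replication checkpoint signal, read 7.26 and 6.54 without drug, 6.68, 6.52 and 6.53 in treated parental cells, and 7.11, 7.01 and 6.80 in the sublines. The untreated arrays alone spanned 0.73, more than the sublines differ from treated parental cells, so CLSPN has no settled starting level here. DTL, which targets CDT1 for destruction, differed by 0.37 and was lowest in parental cells in sunitinib (7.80).

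**Figure D3:**
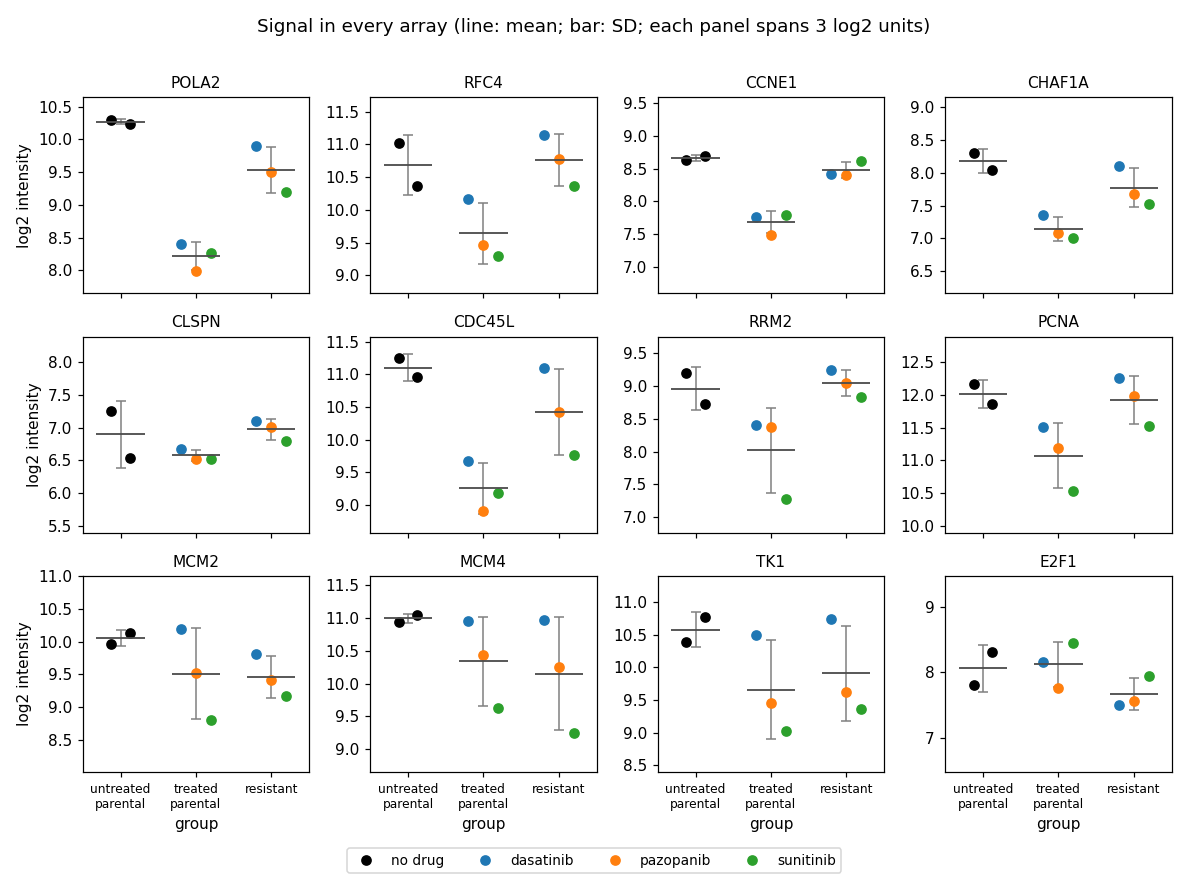
Log2 intensity of 12 genes in each array by group (untreated 2 arrays, treated parental and resistant 3 each), with points coloured by drug, the mean as a line and the SD as a bar. POLA2, RFC4, CCNE1 and CHAF1A are higher in every subline than in every treated parental array, whereas MCM2, MCM4 and TK1 stay high in both dasatinib arrays and low in both sunitinib arrays.

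Taken drug by drug there was 1 array against 1, so these are values without a test. Parental cells lay over 0.5 below the untreated mean for 20 genes in dasatinib (4.22% of all probes), 28 in pazopanib (5.28%) and 30 in sunitinib (4.1%), with medians of -0.52, -0.83 and -1.21. Each subline lay over 0.5 above its parental array for 18 genes in DasR (7.43% of all probes), 18 in PazR (6.37%) and 13 in SunR (5.99%). In the other direction there was 1 gene each in DasR and PazR (7.14% and 6.09%) and 2 in SunR (5.69%). The median differences of 0.49, 0.50 and 0.37 were thus alike while the end points were not. Against the untreated mean, 4 genes were over 0.5 lower in DasR (2.76%), 20 in PazR (2.34%) and 25 in SunR (4.69%). A gene was higher in the subline for all 3 drugs in 25 of 36 cases, against 21.4% of all probes, and by over 0.5 for all 3 in 9, against 2.14%. Those 9 were MCM10, PCNA, CDC45L, RRM2, GINS2, POLA2, RFC4, CHAF1A and CCNE1. MCM5, E2F1, RFC3 and UNG were lower in all 3 sublines.

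The drugs were then compared across both states, with parental or resistant as a term in the fit of the 6 arrays. Each drug was set against the others in the same 6 arrays, so the drug results are not independent of each other. With 1 parental and 1 resistant array a drug, little was left to estimate the spread. The arrays ran from dasatinib over pazopanib to sunitinib in falling order for 18 genes in parental cells (18.1% of all probes) and 29 in the sublines (21.1%). Sunitinib arrays were lower than the others by a median of 0.51 and for 31 of 36 genes. None passed with limma (0.0374% of all probes called higher and 0.00416% lower), with 18 lower and 1 higher at an unadjusted p under 0.05 (4.81% and 4.69% of all probes). MCM4 (-1.22, SE 0.21, adjusted p = 0.158), MCM5 (-1.07, SE 0.20, adjusted p = 0.176) and PRIM1 (-0.90, SE 0.21, adjusted p = 0.277) had the smallest p. Dasatinib arrays were higher than the others by a median of 0.51, again with none called (0% of all probes) and with 22 higher and 0 lower at an unadjusted p under 0.05 (3.15% and 2.93% of all probes). TK1 led at 1.25 (SE 0.21), with MCM4 at 1.08 and MCM5 at 0.97, each at an adjusted p of 0.804. Pazopanib arrays stood near the middle, with a median of -0.05, none called (0%) and 0 genes at an unadjusted p under 0.05 (2.03% of all probes in each direction), and E2F1 (-0.36), TK1 (-0.36) and CCNE2 (0.10) with the smallest p. The methods' t-test was not run for the drugs.

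**Figure D4:**
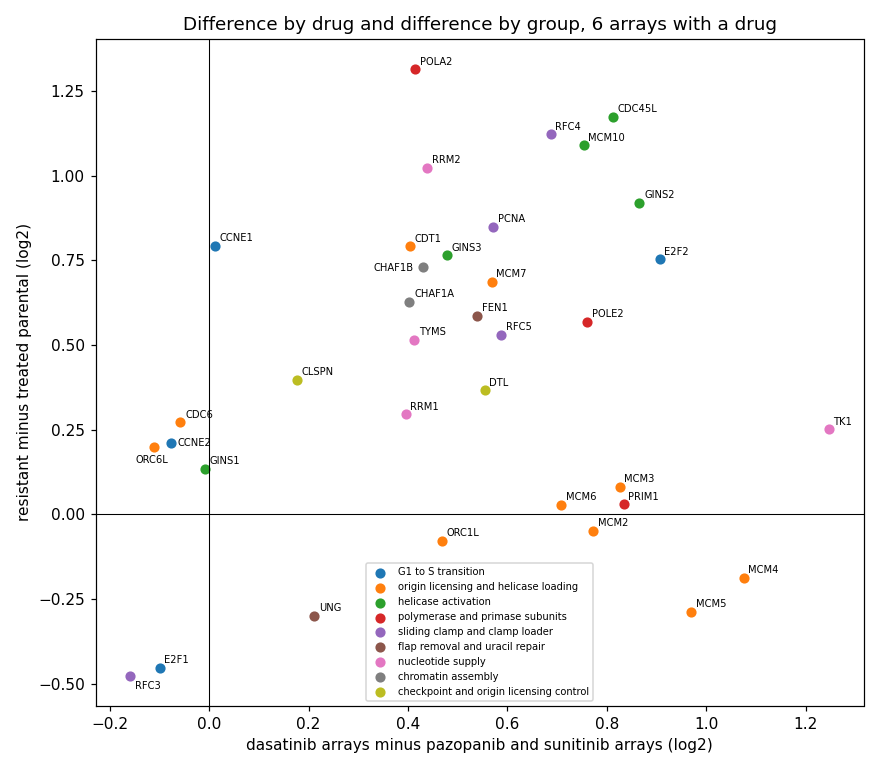
Each point is 1 gene, coloured by role, with the difference of dasatinib arrays from pazopanib and sunitinib arrays on the horizontal axis and that of resistant from treated parental arrays on the vertical axis, both log2 over the same 6 arrays. TK1, MCM4 and MCM5 lie far right (1.25, 1.08 and 0.97) and within 0.3 of 0 by group, while CCNE1 lies at 0.79 by group and 0.01 by drug.

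The plot of both differences sets the genes apart in degree and not in classes. POLA2 had 1.31 by group and 0.41 by drug and CCNE1 0.79 and 0.01. CDC45L, MCM10, GINS2 and E2F2 had over 0.7 in both. MCM2 to MCM6, PRIM1, TK1 and ORC1L had 0.47 to 1.25 by drug, and by group none of the 8 exceeded 0.29 in either direction.

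A second probe was read for 13 of the genes, and it did not always follow the first. Between sublines and treated parental cells, a dimmer probe passed for PCNA (0.58, adjusted p = 0.0290) and FEN1 (1.01, adjusted p = 0.0357). The brightest probes of these genes did not pass. The dimmest probe of PCNA, at a mean of 6.58, differed by -0.01. CCNE1 passed on its brightest probe, but its dimmer probe differed by only 0.17 (adjusted p = 0.219). That CCNE1 probe had a mean of 6.65, near the array median, and differed by -0.03 between treated parental and untreated cells. The dimmer probe of MCM10 differed by 0.56 between sublines and treated parental cells (adjusted p = 0.192). The second probe of RFC4 differed by 0.93 (adjusted p = 0.0848), and that of ORC6L by 0.95 (adjusted p = 0.0674) where the first, at a mean of 14.31, differed by 0.20. RFC3 was at -0.48 on its brightest probe and 0.67 on the next (adjusted p = 0.224), so its direction depends on the probe. With the mean of all probes of a gene, POLA2, CLSPN and CCNE1 passed, and RFC4 (adjusted p = 0.0652) and CHAF1A (adjusted p = 0.0523) did not.

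Other replication genes that are not among the 36 had smaller median differences, while listed S phase E2F targets lay nearer the 36. Over all 48107 probes, 24186 were higher in sublines than in treated parental cells, with 2.71% called higher and 3.33% lower. Of 41 further replication genes, 28 were higher in sublines than in treated parental cells (median 0.24), and 3 passed, all higher: the GINS subunit GINS4 (0.76), the clamp loader subunit RFC2 (0.97) and the polymerase epsilon subunit POLE3 (1.03). In treated parental against untreated cells 36 of the 41 were lower, by a median of 0.35, with 0 called. Of all probes 24106 were lower there, with 0.00416% called higher and 0% lower. Of 23 measured genes listed for nucleotide supply or as S phase E2F targets, 22 were higher in the sublines (median 0.47). Against untreated cells, 22 of the 23 were lower in treated parental cells (median -0.82), with 0 called. Between sublines and treated parental cells, DNMT1, the maintenance DNA methyltransferase, passed (1.26, adjusted p = 0.00354). CCNA2, the S phase cyclin, passed as well (1.13, adjusted p = 0.0283). So did RRM2B, a reductase subunit induced by p53 and listed for nucleotide supply (0.96, adjusted p = 0.0442). RRM2B was 0.74 above untreated cells in the sublines, where the median of the 23 was -0.31. Among 12 E2F family members, partners and pocket proteins, E2F7, a repressor of E2F targets, passed at 0.51 (adjusted p = 0.0291), and the other 11 did not.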

How the data were processed

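RNA of 8 samples was hybridized to Illumina HumanHT-12 arrays. The authors used beadarray, a log2 transformation and quantile normalization. Log2 intensities of 48107 probes were deposited. How background was treated is not given in the sources used here. There is no read depth, and precision is set by how many arrays there are. Probes were named through the platform annotation and current symbols. The members and gene lists were chosen with earlier results of these data known. Differences were tested per probe with limma 3.58.1 in R 4.3.3 (eBayes with an intensity trend), two-sided, adjusted by Benjamini-Hochberg over all probes, on 6 arrays for resistant against treated parental cells and for drugs, and on all 8 otherwise. The script was tested on simulated data. Replicate numbers pair no arrays. For each drug, however, the parental and resistant deviations (array minus group mean, all probes) were correlated, at 0.126 (dasatinib), 0.184 (pazopanib) and 0.199 (sunitinib), so the drug was tried as a block. Full statistics are given for genes that passed, and values for the 3 of smallest p where none did. Per-array values are given for the most changed gene of each role and for CCNE1, E2F1, PCNA and MCM2; the further genes shown by array were chosen after their values were seen. The alternatives were the estimation of the spread, the brighter 50% of the probes, centering, a second normalization, an offset of 50, all probes of a gene, the array sets, fewer or more arrays, the methods' t-test and leaving out each array. Promoters came from RefSeq. Of 27 genes listed for nucleotide supply or as S phase E2F targets 23 were measured, and the others were not analysed here.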

Additional observations from a re-analysis of the deposited data

How the results depend on the processing

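The count of 5 genes that passed between sublines and treated parental cells was 2 without an intensity trend, 9 with robust estimation, 3 with the mean of all probes, 12 with the drug as a block, 0 with the array sets as a term, and 9 and 0 with the methods' t-test before and after adjustment. Leaving out 1 array gave 0 to 12, and a median change of 0.32 to 0.69 around 0.46. The array sets turned CLSPN to -0.33, and UNG, E2F1 and MCM5, among others, also changed sign. For treated against untreated cells, with 0 called, robust estimation gave 1, the 2 groups alone 1, the methods' t-test 16 unadjusted, and leaving out 1 array 0 to 2, with medians of -1.08 to -0.64. For resistant against untreated cells the t-test gave 1 unadjusted, and leaving out 1 array gave 0 throughout, with medians of -0.67 to -0.28. Robust estimation gave 1 for sunitinib. The cause was not tested. No paired analysis by replicate number was possible because the labels number only the untreated arrays. With 2 or 3 arrays a group and 1 array a drug, differences between single drugs have no replicate check, and dim probes near or under the array median may be at background.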
